A study of Rattus norvegicus with 28 samples.

Results

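The NR4A nuclear receptor genes, Nr4a1, Nr4a2 and Nr4a3, were followed in the rat insulinoma line INS-1, a cultured model of the insulin-secreting beta cell. They were chosen by name, and 3 of the 17455 gene symbols in the deposited table belong to the family, each with 1 transcript. The RNA-seq libraries came from WT cells and from Med14 S983A knock-in cells, in which a serine of the Mediator subunit Med14 is replaced by alanine. Cells of each genotype were untreated (CON) or were exposed for 1, 8 or 16 h to an agent that raises cAMP, giving 14 groups of 2 libraries. The agents were exendin-4 (Ex-4) at 10 nM, which stimulates GLP-1 receptors, and forskolin (FSK) at 10 µM, a direct activator of adenylyl cyclase. All cells had been moved to serum-free medium before treatment. There was 1 CON group per genotype, so time in that medium and time of exposure cannot be told apart. The knock-in cells were grown from sorted single cells after CRISPR editing and the study used several such lines, but the labels do not say which line the libraries came from, so genotype and clone cannot be told apart. TPM values do not show the substitution, and the genotype rests on the labels.

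The NR4A proteins are orphan nuclear receptors that act without a known hormone ligand, so that their activity depends largely on their abundance. Nr4a1 encodes Nur77, Nr4a2 encodes Nurr1 and Nr4a3 encodes Nor1. All bind as monomers to a DNA element called NBRE or as dimers to a palindrome called NurRE, and Nur77 and Nurr1 also form heterodimers with the retinoid X receptors. They are immediate early genes: their promoters are read within minutes of a stimulus without new protein synthesis. In endocrine cells cAMP induces them through PKA and CREB, a factor that binds the cAMP response element (CRE).

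In the rn6 build used by the authors, Nr4a1 (NM_024388) lies on chromosome 7 from 142912309 to 142920215 on the plus strand, Nr4a2 (NM_019328) on chromosome 3 from 43111936 to 43117406 on the minus strand, and Nr4a3 (NM_031628) on chromosome 5 from 63781801 to 63821639 on the plus strand. RefSeq promoter sequences on the GRCr8 build matched 2 of the 3 genes. They are shown because the genes respond to a cAMP signal. Each line gives the 250 bases before the annotated start, 5′ to 3′ on the strand of the gene, at chr7:134259888-134260137 (plus strand) for Nr4a1 and at chr3:62104888-62105137 (minus strand) for Nr4a2. Capitals mark the CRE core TGACG, read on either strand, so that CGTCA is the same core on the opposite strand.
Nr4a1: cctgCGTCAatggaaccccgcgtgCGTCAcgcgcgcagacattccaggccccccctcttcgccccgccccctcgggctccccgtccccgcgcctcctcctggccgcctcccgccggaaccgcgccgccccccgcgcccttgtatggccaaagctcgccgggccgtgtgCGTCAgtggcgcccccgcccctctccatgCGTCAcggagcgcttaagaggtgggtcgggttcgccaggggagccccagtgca
Nr4a2: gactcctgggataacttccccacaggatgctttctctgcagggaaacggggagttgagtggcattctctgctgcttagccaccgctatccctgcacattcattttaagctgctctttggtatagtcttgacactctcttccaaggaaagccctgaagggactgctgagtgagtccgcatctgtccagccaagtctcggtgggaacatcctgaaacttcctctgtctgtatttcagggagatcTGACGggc
The Nr4a3 promoter was not analysed here.

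The Nr4a1 window held 4 CRE cores, with their leftmost bases at positions -246, -226, -82 and -53, counted from the annotated start. At least 4 cores occurred in 0.173% of the 33469 RefSeq windows of the same length. Among the 8633 windows of genes that averaged 1 TPM or more here, the share was 0.313%. All 4 lay inside the longer string TGCGTCA, which was picked after the sequence had been read. At least 3 copies of that string were found in 1 window, that of Nr4a1. The Nr4a2 window held 1 core, at position -8, a count reached or passed by 18.2% of all windows and by 29.5% of the 8633. Neither window held the full palindromic CRE, TGACGTCA, which 1.59% of all windows and 3.09% of the 8633 held. Neither held the NBRE written as AAAGGTCA, which 1.24% of all windows and 0.776% of the 8633 held. The G and C content was 74.8% for Nr4a1, above that of 96.4% of windows, and 52.0% for Nr4a2, and the median window had 51.2%. Core counts were not compared among windows of like G and C content. These letters describe the windows and do not show that a factor bound there. Whether transcription in these cells begins at the annotated starts was not tested, so the windows may not be the promoters in use.

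The libraries held 42551133 to 57231981 fragments, apart from Med14 S983A replicate 2 at 8 h of FSK, the deepest, with 92635979. Ins1 was at 33716 TPM or more in every library. Markers of alpha, delta, acinar and fibroblast cells and macrophages, among them Sst, Prss1, Col1a1 and Ptprc, stayed at 0.699 TPM or less, except Cd68 at up to 1.75 TPM and the glucagon gene Gcg at 6.09 to 1345 TPM. In bulk RNA, fewer responding cells and less RNA per cell cannot be told apart. Levels are given as TPM, transcript abundance scaled for transcript length and library size, which allows the 3 genes to be compared.

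Nr4a1 was the most abundant of the 3 genes in all 14 groups. It made up 71.1% ± 0.7 (SD, n = 2) to 89.8% ± 0.6 of the summed NR4A TPM. The sum itself ran from 9.32 ± 0.51 TPM in Med14 S983A CON to 1892 ± 75 TPM in WT at 1 h of FSK. For each gene the 4 groups at 1 h stood above the 10 other groups, FSK above Ex-4, and Med14 S983A CON was lowest. Ordered by their means, neighbouring groups overlapped in 1 of 13 cases for Nr4a1, in 4 of 13 for Nr4a2 and in 1 of 13 for Nr4a3. The Nr4a1 overlap was between WT at 16 h of FSK and Med14 S983A at 8 h of FSK. Nr4a2 could not be ordered between the genotypes at 1 h of FSK, nor along the run from WT at 8 h of Ex-4 through Med14 S983A at 16 h and 8 h of Ex-4 to WT CON. The Nr4a3 overlap was between 16 h and 8 h of Ex-4 in Med14 S983A cells.

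**Figure D1:**
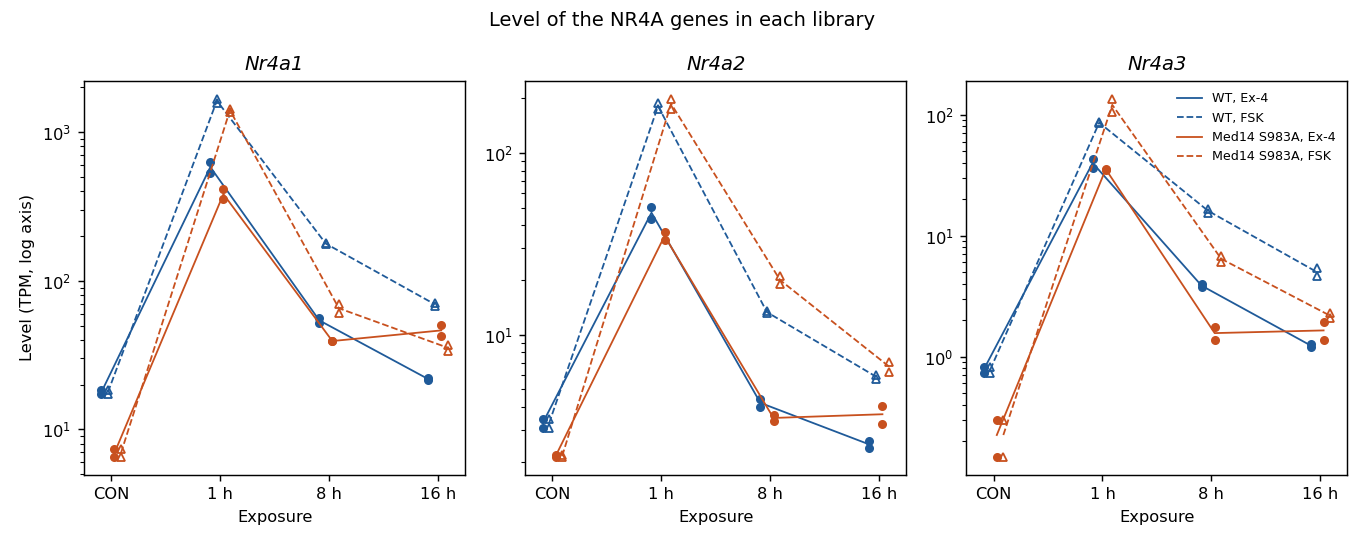
Level of Nr4a1, Nr4a2 and Nr4a3 in TPM (vertical log axes, each gene with its own range) at CON and after 1, 8 and 16 h (horizontal axis). Each symbol is 1 library, filled circles and solid lines for Ex-4, open triangles and dashed lines for FSK, blue for WT and orange for Med14 S983A, and lines join group means; the CON libraries are drawn once for each agent. Every 1 h library lies above all CON, 8 h and 16 h libraries of its gene, and Nr4a1 in Med14 S983A cells at 16 h of Ex-4 (42.4 and 50.3 TPM) lies above WT (21.4 and 22.2 TPM).

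The first comparison set each time of Ex-4 against CON in WT cells. All 3 rose at 1 h, and at 8 h their libraries lay far below those at 1 h but still above CON. Nr4a1 went from 17.3 and 18.4 TPM at CON to 532 and 632 TPM at 1 h, with 52.1 and 56.2 TPM left by 8 h and 21.4 and 22.2 TPM by 16 h. The replicates of these 4 groups did not overlap. Nr4a2 went from 3.43 and 3.08 TPM at CON to 43.4 and 50.5 TPM at 1 h, then to 4.005 and 4.43 TPM at 8 h and 2.39 and 2.59 TPM at 16 h, so that the last group lay below CON. Nr4a3 went from 0.824 and 0.738 TPM at CON to 36.6 and 43.2 TPM at 1 h, then to 3.97 and 3.75 TPM at 8 h and 1.201 and 1.273 TPM at 16 h. It had the lowest start of the 3 genes.

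Changes were tested with limma on log2(TPM + 1) over the 10275 genes that averaged 1 TPM or more. Calls needed an adjusted p under 0.05 together with a change above 1.5-fold. Shares of all genes are for limma calls, and none is given for edgeR, DESeq2 or an unadjusted p. The labels do not say that replicates came from separate cultures, so the p-values measure the spread between these libraries. On this scale the SE of a difference between groups was 0.083 for Nr4a1, 0.089 for Nr4a2 and 0.11 for Nr4a3. At 1 h of Ex-4 in WT cells all 3 genes were called higher, against 1.75% of the genes tested. The log2 change of Nr4a1 was 4.95 (limma adjusted p = 6.5e-24), a ratio of mean TPM of 32.7 and the change ranked 2 of 10275 from the highest. Nr4a3 followed with 4.52 (limma adjusted p = 4.0e-21, rank 5) and Nr4a2 with 3.49 (limma adjusted p = 1.2e-20, rank 10). The pseudocount of 1 TPM compresses the changes of Nr4a3, whose ratio of mean TPM was 51.1 and whose log2 change by edgeR was 5.75.

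At 8 h of Ex-4, 2 of the 3 genes were still called higher in WT cells, against 3.61% of genes. Nr4a1 was 1.55 higher than CON (limma adjusted p = 7.8e-14) and Nr4a3 1.45 higher (limma adjusted p = 3.5e-11) on the log2 scale, and Nr4a2, at 0.29, missed the fold threshold. At 16 h none of the 3 was called by limma, where 11.8% of genes were called in either direction. The log2 differences were 0.28 for Nr4a1, -0.29 for Nr4a2 and 0.33 for Nr4a3, all 3 with an unadjusted p under 0.05 and each under 1.5-fold. Both edgeR and DESeq2 called 1 of them, Nr4a3, and DESeq2 with size factors from the ERCC spike-ins called 2, Nr4a1 and Nr4a3.

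In Med14 S983A cells the same comparison with Ex-4 began from a lower CON level, and the libraries at 8 h and 16 h stayed above that level for each gene. Nr4a1 went from 6.53 and 7.36 TPM at CON to 353 and 412 TPM at 1 h, with 39.5 and 39.1 TPM left by 8 h and 50.3 and 42.4 TPM by 16 h. Its lowest library at 16 h was above its highest at 8 h. Nr4a2 went from 2.13 and 2.17 TPM to 33.1 and 36.8 TPM at 1 h, and was at 3.34 and 3.63 TPM at 8 h and 4.06 and 3.24 TPM at 16 h. Nr4a3 went from 0.301 and 0.148 TPM, which are 36.5 and 18 recovered fragments, to 35.7 and 35.2 TPM at 1 h, and was at 1.38 and 1.75 TPM at 8 h and 1.93 and 1.36 TPM at 16 h. For Nr4a2 and Nr4a3 the 8 h and 16 h libraries overlapped and all lay above CON.

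All 3 genes were called higher at 1 h of Ex-4 in these cells, against 2.03% of genes. Nr4a1 rose by 5.59 on the log2 scale (limma adjusted p = 3.5e-25), Nr4a3 by 4.90 (limma adjusted p = 6.2e-22) and Nr4a2 by 3.51 (limma adjusted p = 8.5e-21). At 8 h 2 of 3 were called, against 3.21% of genes, and at 16 h again 2 of 3, against 4.73%. Nr4a1 was 2.34 above CON at 8 h (limma adjusted p = 3.0e-17) and 2.57 above it at 16 h (limma adjusted p = 2.1e-18), both rank 11 of 10275 from the highest. Nr4a3 was 1.07 and 1.11 above CON (limma adjusted p = 1.2e-08 and 3.3e-09). Nr4a2, at 0.51 and 0.56 on the log2(TPM + 1) scale, was not called. It was called by edgeR with log2 changes of 0.71 and 0.80.

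FSK, which bypasses the receptor, gave higher levels than Ex-4 in most groups. In WT cells Nr4a1 reached 1578 and 1671 TPM at 1 h and was at 179 and 176 TPM at 8 h and 70.9 and 68.1 TPM at 16 h. Nr4a2 reached 175 and 188 TPM, then 13.2 and 13.5 TPM and 6.03 and 5.74 TPM. Nr4a3 reached 86.5 and 85.6 TPM, then 15.5 and 16.6 TPM and 5.37 and 4.62 TPM. At each of the 3 times all libraries were above those of WT CON for each gene. All 3 genes were called higher in WT cells at 1 h, 8 h and 16 h, against 2.53%, 8.77% and 10.3% of genes. The log2 changes of Nr4a1 were 6.43, 3.25 and 1.91 (limma adjusted p of 1.1e-16 or lower), those of Nr4a2 5.42, 1.75 and 0.69 (1.1e-07 or lower), and those of Nr4a3 5.61, 3.26 and 1.75 (1.4e-13 or lower).

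In Med14 S983A cells FSK took Nr4a1 to 1440.0 and 1363 TPM at 1 h, 70.1 and 60.5 TPM at 8 h and 37.2 and 33.7 TPM at 16 h. Nr4a2 was at 175 and 199 TPM, then 20.9 and 19.1 TPM and 7.12 and 6.26 TPM. Nr4a3 was at 106 and 135 TPM, then 6.79 and 6.07 TPM and 2.28 and 2.08 TPM. Again all libraries were above CON of the genotype, and all 3 genes were called higher at 1 h, 8 h and 16 h, against 3.19%, 11.6% and 12.2% of genes. The log2 changes were 7.46, 3.06 and 2.20 for Nr4a1, 5.89, 2.74 and 1.28 for Nr4a2, and 6.63, 2.60 and 1.38 for Nr4a3 (limma adjusted p of 1.6e-11 or lower for each). Without the deepest library, replicate 2 at 8 h of FSK, each of the 3 calls at 8 h remained.

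The second question was whether the genotypes differ before treatment. Nr4a1 was 6.53 and 7.36 TPM in Med14 S983A CON against 17.3 and 18.4 TPM in WT CON, a ratio of mean TPM of 0.390. All 3 genes were lower in both Med14 S983A libraries than in either WT library. How many other genes were ordered in this way was not counted. Of the 3, 1 was called lower, against 11.1% of genes. That gene was Nr4a1, with a log2 difference of -1.24 (limma adjusted p = 1.2e-12), rank 336 of 10275 from the lowest. Nr4a2, at -0.43, and Nr4a3, at -0.54, had adjusted p-values of 0.00014 and 0.00010 by limma but missed the fold threshold. For Nr4a3 the pseudocount decided this, since edgeR gave -1.71 and called it. To see whether the chromosome region moved as a whole, the 50 tested genes nearest to each member were examined. Their median log2 difference at CON was -0.06 around Nr4a1, -0.16 around Nr4a2 and -0.13 around Nr4a3, beside -0.07 over all genes. Of the 50, 9, 8 and 3 were called lower, beside the 11.1% of all genes, and 1, 1 and 4 were called higher. No share over all genes is given here for the calls higher.

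The third question was whether the response to an agent, meaning the log2 change against CON of the same genotype, differs between the genotypes. Each difference uses the CON libraries of both genotypes, and its SE was 0.12 for Nr4a1, 0.13 for Nr4a2 and 0.15 for Nr4a3. For Nr4a1 the response to Ex-4 was larger in Med14 S983A cells at each time. The difference was 0.64 at 1 h (limma adjusted p = 0.0019), 0.79 at 8 h (limma adjusted p = 2.8e-05) and 2.29 at 16 h (95% confidence interval 2.05 to 2.54, limma adjusted p = 2.2e-13). At 1 h the call was lost when WT at 1 h of Ex-4 replicate 1, Med14 S983A at 1 h of Ex-4 replicate 2 or Med14 S983A CON replicate 1 was left out, with differences of 0.52, 0.53 and 0.57. At 16 h the value ranked 8 of 10275 from the highest and stayed between 1.93 and 2.43 under every other processing and with any library left out.

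In these 3 Ex-4 comparisons 0.672%, 2.77% and 7.24% of genes were called in either direction at 1, 8 and 16 h, and members called numbered 1, 1 and 3. Nr4a2 differed by 0.02 at 1 h and 0.22 at 8 h, neither called, and by 0.84 at 16 h (limma adjusted p = 8.4e-06). Nr4a3 differed by 0.78 at 16 h (limma adjusted p = 0.00024). The calls of Nr4a2 and Nr4a3 at 16 h were lost when libraries were scaled on their ERCC spike-ins in the same test, with differences of 0.56 and 0.58. Nr4a3 differed by 0.38 at 1 h and -0.38 at 8 h, neither called by limma. By edgeR these were 1.60, called, and 0.43, not called and of the opposite sign.

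With FSK the picture was less uniform. At 1 h the response was larger in Med14 S983A cells for Nr4a1, by 1.03 (limma adjusted p = 9.4e-07), and for Nr4a3, by 1.02 (limma adjusted p = 5.8e-05), so that 2 of 3 were called against 1.64% of genes. Nr4a2 differed by 0.47 and missed the fold threshold. At 8 h 2 of 3 were called, against 13.9% of genes, and in opposite directions. Nr4a2 responded more in Med14 S983A cells, by 0.99 (limma adjusted p = 4.4e-07), and Nr4a3 less, by -0.65 (limma adjusted p = 0.00089).

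The sign of the Nr4a3 value at 8 h of FSK rested on the pseudocount, since Nr4a3 was under 1 TPM in all CON libraries. With a pseudocount of 0.1 TPM it was 0.17, by edgeR 0.42 and by DESeq2 0.44, none of them called. Without the deepest library it was -0.58 and without Med14 S983A CON replicate 1 it was -0.56, both under the fold threshold. Nr4a1 did not pass at 8 h, with -0.19 (95% confidence interval -0.43 to 0.05). At 16 h of FSK 1 of 3 was called, against 17% of genes: Nr4a2, by 0.59 (limma adjusted p = 0.00029). That call lay at the threshold and was lost without WT CON replicate 1, WT at 16 h of FSK replicate 2, Med14 S983A CON replicate 1 or Med14 S983A at 16 h of FSK replicate 1, with differences of 0.53, 0.56, 0.58 and 0.51. Nr4a1 differed by 0.29 and Nr4a3 by -0.37, which was 0.50 by edgeR, neither called.

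**Figure D2:**
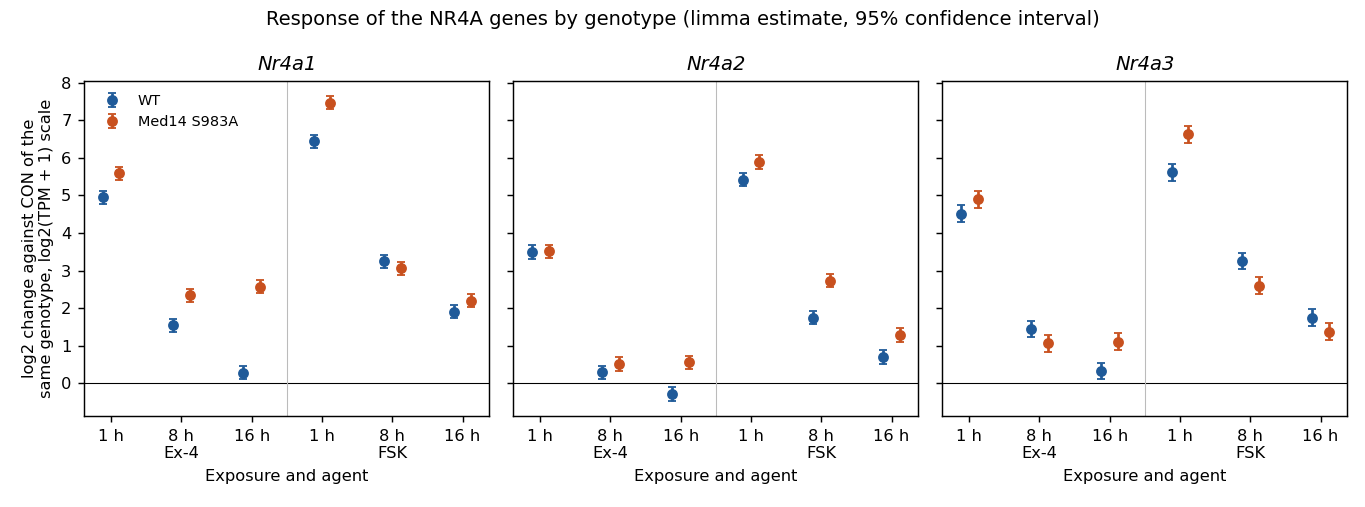
Response of each NR4A gene, as the log2 change against CON of the same genotype on the log2(TPM + 1) scale (vertical axis), after 1, 8 and 16 h of Ex-4 (left of the grey line) and FSK (right of it). Points are limma estimates and bars their 95% confidence intervals, blue for WT and orange for Med14 S983A; values of 1 genotype share its CON libraries. The widest gap is for Nr4a1 at 16 h of Ex-4, with 0.28 in WT and 2.57 in Med14 S983A cells.

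Because the CON levels differ, the levels themselves were also compared between genotypes within each treated group, a comparison added after the values were seen. Nr4a1 was lower in Med14 S983A cells than in WT in 5 of the 6 treated groups by this estimate, and 3 of these differences were called. It was lower in Med14 S983A cells at 1 h of Ex-4, with a log2 difference of -0.60 (limma adjusted p = 6.5e-07), at 8 h of FSK, with -1.43 (limma adjusted p = 6.9e-14), and at 16 h of FSK, with -0.95 (limma adjusted p = 1.8e-10). The differences at 8 h of Ex-4, with -0.45 (limma adjusted p = 4.1e-05), and at 1 h of FSK, with -0.21 (limma adjusted p = 0.027), were under 1.5-fold. It was higher at 16 h of Ex-4, with 1.05 (limma adjusted p = 3.4e-11), where 46.4 ± 5.6 TPM stood against 21.8 ± 0.5 TPM (SD, n = 2). The call at 1 h of Ex-4 was lost by edgeR, with -0.55, and with WT replicate 2 or Med14 S983A replicate 1 of that time left out, with -0.48 and -0.49.

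Nr4a3 was lower in Med14 S983A cells at 8 h of Ex-4, with -0.93 (limma adjusted p = 4.4e-08), at 8 h of FSK, with -1.20 (limma adjusted p = 3.9e-10), and at 16 h of FSK, with -0.91 (limma adjusted p = 4.3e-08). At 1 h of FSK its difference was 0.47 (limma adjusted p = 0.00044), with 121 against 86.0 TPM, under the fold threshold, and at 16 h of Ex-4 it was 0.23 and at 1 h of Ex-4 -0.16, neither called. Nr4a2 was called in none of the 6 treated groups by limma, and its differences lay between -0.41 and 0.55, with an unadjusted p under 0.05 in 4 of them. At 8 h of FSK, where the difference was 0.55, edgeR gave 0.62 and called it. Of the 3 genes 1 was called at 1 h, 8 h and 16 h of Ex-4, against 19.7%, 18.8% and 20.8% of genes. At 1 h of FSK 0 were called, and also 0 by edgeR, with 2 at an unadjusted p under 0.05, against 20.1% of genes. At 8 h and 16 h of FSK 2 were called, against 21% and 23.3%.

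Ex-4 and FSK were compared at the same time and genotype, each at its single dose. In WT cells all 3 genes were lower with Ex-4 at 1 h, 8 h and 16 h, and each of these 9 differences was called, against 1.14%, 4.77% and 7.29% of genes called lower. The differences for Nr4a1 were -1.48, -1.70 and -1.63, those for Nr4a2 -1.93, -1.46 and -0.98, and those for Nr4a3 -1.09, -1.81 and -1.42 (limma adjusted p of 3.6e-08 or lower). The 2 agents thus gave Nr4a1 levels that differed by a ratio of mean TPM of 0.358, 0.305 and 0.314.

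In Med14 S983A cells all 3 were lower with Ex-4 at 1 h and at 8 h, against 1.58% and 6.72% of genes called lower. The 1 h differences were -1.87 for Nr4a1, -2.38 for Nr4a2 and -1.73 for Nr4a3, and at 8 h they were -0.71, -2.23 and -1.54 (limma adjusted p of 2.2e-08 or lower). At 16 h only Nr4a2 was called lower with Ex-4 by limma, with -0.73 (limma adjusted p = 9.3e-08), so 1 of 3 against 5.76% of genes. Nr4a1 was then at 50.3 and 42.4 TPM with Ex-4 and at 37.2 and 33.7 TPM with FSK, a difference of 0.37 (95% confidence interval 0.20 to 0.55) that missed the fold threshold. Nr4a3 differed by -0.27 (95% confidence interval -0.50 to -0.05), and by -0.77 in DESeq2 with ERCC size factors, which called it. Whether the difference between the agents itself differs between the genotypes was not tested.

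The decline after the 1 h peak was followed by setting 16 h against 8 h. In WT cells with Ex-4, Nr4a1 fell by 1.27 (limma adjusted p = 5.7e-12) and Nr4a3 fell by 1.12 (limma adjusted p = 5.6e-09) on the log2 scale, 2 of 3 against 3.49% of genes called lower. The Nr4a2 difference of -0.58 lay just under the fold threshold and was called by edgeR, with -0.69, and without WT 8 h replicate 1 or WT 16 h replicate 2, with -0.64 and -0.62. In Med14 S983A cells with Ex-4 none of the 3 was called by limma or edgeR and 1 had an unadjusted p under 0.05, where 3.96% of genes were called in either direction. The differences were 0.23 for Nr4a1 (95% confidence interval 0.06 to 0.40), 0.05 for Nr4a2 (-0.13 to 0.23) and 0.04 for Nr4a3 (-0.18 to 0.26).

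With FSK all 3 genes fell between 8 h and 16 h in both genotypes, against 3.62% of genes called lower in WT and 6.4% in Med14 S983A cells. The differences in WT were -1.34, -1.06 and -1.51 for Nr4a1, Nr4a2 and Nr4a3, and in Med14 S983A cells -0.86, -1.45 and -1.22 (limma adjusted p of 1.0e-09 or lower). With ERCC scaling the Nr4a1 difference in Med14 S983A cells was -0.56 and was not called. As a share of the 1 h mean TPM, Nr4a1 was at 9.30% after 8 h and 3.75% after 16 h of Ex-4 in WT cells, and at 10.3% and 12.1% in Med14 S983A cells. With FSK the order was the opposite, with 10.9% and 4.28% in WT and 4.66% and 2.53% in Med14 S983A cells. Nr4a2 kept 7.34% of its 1 h level at 8 h of FSK in WT and 10.7% in Med14 S983A cells, while Nr4a3 kept 18.6% and 5.33%.

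The balance between Nr4a1 and Nr4a2 was read within each library, where scaling cancels. Nr4a1 stood 5.02 and 5.95 times above Nr4a2 in WT CON and 3.07 and 3.38 times above it in Med14 S983A CON. With FSK the ratio was 13.1 and 13.6 in WT at 8 h but 3.17 and 3.35 in Med14 S983A cells, and at 16 h it was 11.8 and 11.9 against 5.22 and 5.38. At 16 h of Ex-4 the order turned, with 8.57 and 8.96 in WT and 12.4 and 13.1 in Med14 S983A cells. The ranges of the genotypes did not overlap at CON or in any of the 6 treated groups. These ratios were not tested, and how often other pairs of genes separate the genotypes in this way was not counted.

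**Figure D3:**
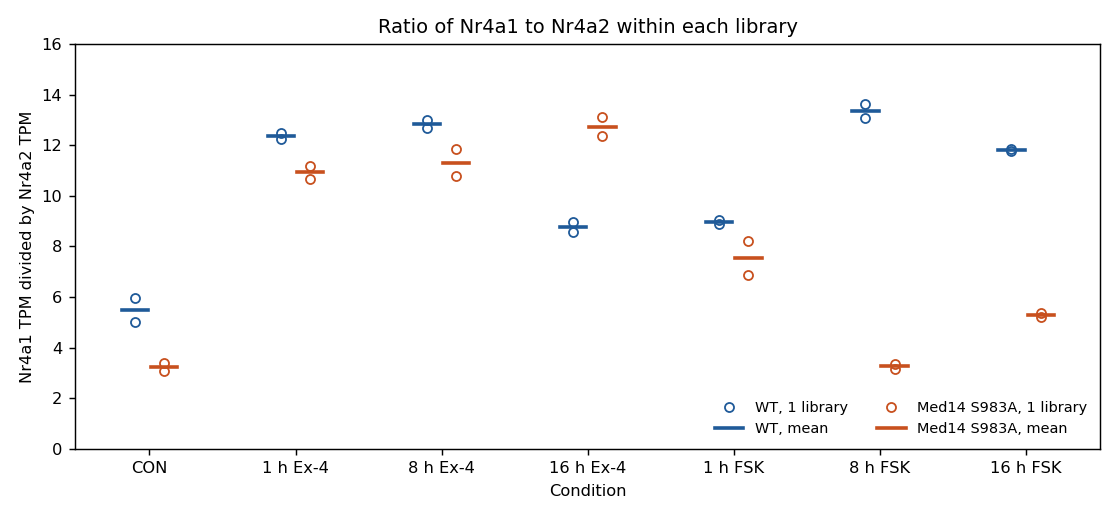
Ratio of Nr4a1 to Nr4a2 TPM within each library (vertical axis, linear from 0) at CON and in the 6 treated conditions (horizontal axis). Circles are single libraries and bars the mean of 2, blue for WT and orange for Med14 S983A. The genotypes lie far apart at 8 h of FSK, 13.1 and 13.6 against 3.17 and 3.35, and WT is below Med14 S983A at 16 h of Ex-4 alone.

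The members followed each other over the groups. The Pearson r of the 14 group means of log2(TPM + 1) was 0.953 for Nr4a1 with Nr4a2, 0.987 for Nr4a1 with Nr4a3 and 0.967 for Nr4a2 with Nr4a3. These r values describe points that come from the same libraries and share their depth and scaling, and the 4 groups at 1 h spread them. Among all tested genes the 5 nearest to Nr4a1 were Per1 (0.977), a repressor of the circadian clock, the microRNA locus Mir132 (0.973), Egr1 (0.970), Spata2L (0.967) and the AP-1 gene Fosb (0.964). Nearest to Nr4a2 were Znrd1 (0.990), a subunit of RNA polymerase I, the kinase gene Pim3 (0.985), the AP-1 gene Junb (0.984), the MAP kinase phosphatase gene Dusp1 (0.984) and Klf4 (0.977). Nearest to Nr4a3 were Per1 (0.990), Spata2L (0.978), the G protein regulator Rgs2 (0.976), Egr4 (0.974) and Tob1 (0.974). Nr4a1 and Nr4a3 thus shared Per1 and Spata2L, and Nr4a2 shared none of its 5 with either.

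**Figure D4:**
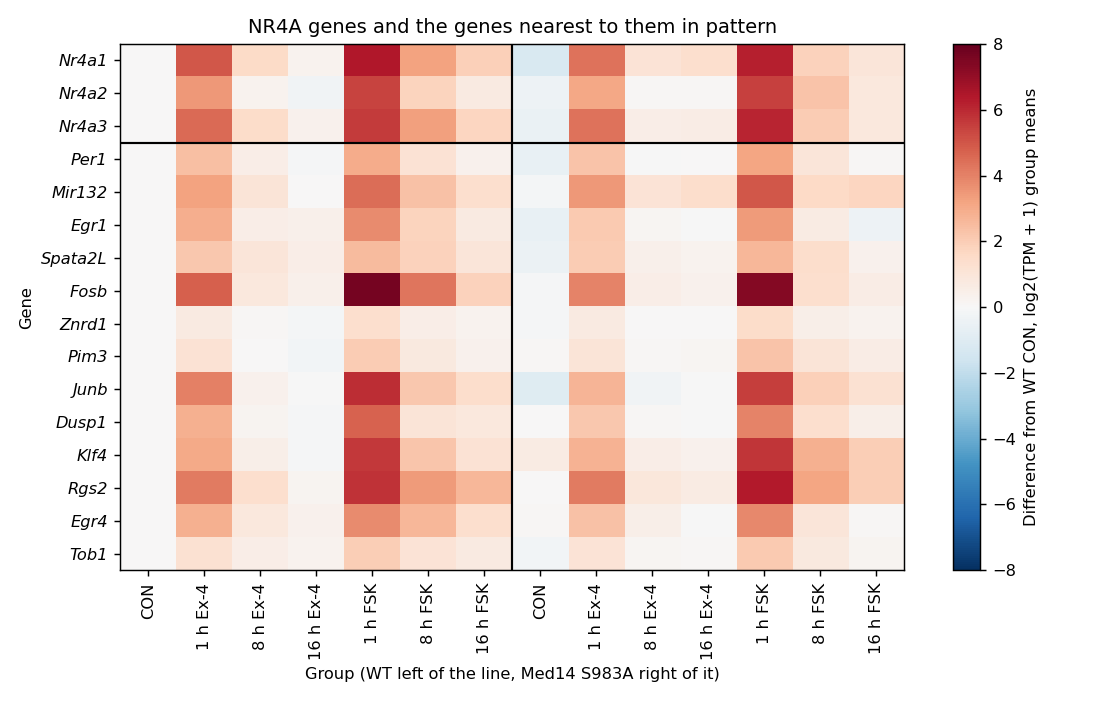
Difference of each group mean from WT CON on the log2(TPM + 1) scale (colour, red higher and blue lower) for the 3 NR4A genes (above the line) and the genes nearest to them in pattern (below it), in the 14 groups (columns, WT left and Med14 S983A right of the line). For the 3 NR4A genes red is deepest in the 4 columns at 1 h, FSK and Ex-4 in both genotypes, and Nr4a1 is blue in Med14 S983A CON (-1.24).

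The partners and the wider receptor family were examined from lists taken from general knowledge. Counts by edgeR or at an unadjusted p have no share over all genes beside them, here or in the lists below. Of the 3 retinoid X receptor genes tested, 0 were called at 1 h of Ex-4 in WT cells by limma or edgeR, against 2.87% of all genes, with 2 at an unadjusted p under 0.05. At 16 h of FSK 1 of them, Rxrb, fell in both genotypes, from 43.9 to 17.9 TPM in WT (log2 change -1.24) and from 43.1 to 23.1 TPM in Med14 S983A cells (-0.87). That is 1 of 3 against 34.5% of all genes called in WT and 33.3% in Med14 S983A cells, and edgeR called 2 of 3 in each. The median log2 change of the 3 was -0.09 in WT and -0.09 in Med14 S983A cells, beside -0.20 and -0.10 over all genes. With ERCC scaling both signs turned, with medians of 0.25 and 0.15 beside 0.12 and 0.13 over all genes, and 1 was called higher and 1 lower in Med14 S983A cells. Rxrg was at 1.55 TPM at CON and 2.63 TPM at 16 h of FSK in Med14 S983A cells, a log2 change of 0.50 that missed the fold threshold.

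Of 45 nuclear receptor genes outside the NR4A family, the retinoid X receptors included, 41 were in the table and 25 were tested. At 1 h of Ex-4 in WT cells, where 2.87% of all genes were called, 0 of the 25 were called by limma or edgeR, with 10 at an unadjusted p under 0.05 and a median of -0.07, beside -0.06 over all genes. At 16 h of FSK 5 were higher and 9 lower in WT, with a median of -0.06, and 3 were higher and 8 lower in Med14 S983A cells, with a median of -0.33, beside -0.20 and -0.10 over all genes. With ERCC scaling, under which 32.5% of all genes were called in WT and 34.4% in Med14 S983A cells, the counts were 6 higher and 5 lower in WT and 5 higher and 7 lower in Med14 S983A cells, and the medians were 0.25 and -0.08, beside 0.12 and 0.13 over all genes. Called in both genotypes, with the largest changes, were the thyroid hormone receptor gene Thra (-1.66 in WT and -1.84 in Med14 S983A cells), the clock receptor gene Nr1d2 (-1.62 and -1.34) and the retinoic acid receptor gene Rara (-1.55 and -1.88). Rising in both were Esrra (1.24 and 1.36), an orphan receptor of mitochondrial genes, and Rorb (1.14 and 1.89). At this time 34.5% of all genes were called in WT and 33.3% in Med14 S983A cells.

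Of 15 genes that act upstream of NR4A transcription, 12 were tested. At 1 h of Ex-4 in WT cells 1 of the 12 was called, against 2.87% of all genes. This was Crem, which encodes a cAMP-responsive factor with repressor forms and rose from 11.2 to 179 TPM (log2 change 3.89). The median of the 12 was -0.02, beside -0.06 over all genes. Crem was still higher at 16 h of FSK, by 2.80 in WT and 4.10 in Med14 S983A cells, while Prkacb, a catalytic subunit of PKA, was lower (-1.32 and -1.76), as was the CREB coactivator gene Crtc1 (-0.89 and -0.81). In each genotype 1 was called higher and 4 lower, which is 41.7% of the 12 against 34.5% of all genes in WT and 33.3% in Med14 S983A cells. The 4 lower genes were not the same. They were Creb1, Crtc1, Crebbp and Prkacb in WT, and Crtc1, Prkaca, Prkacb and Nkx6-1 in Med14 S983A cells. The medians were -0.48 and -0.49, beside -0.20 and -0.10 over all genes. With ERCC scaling 1 was higher and 1 lower in WT, and 1 higher and 2 lower in Med14 S983A cells, with medians of -0.15 and -0.25.

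Of 11 genes reported elsewhere as NR4A targets, 8 were tested. At 1 h of Ex-4 in WT cells 0 of the 8 were called by limma or edgeR and 0 had an unadjusted p under 0.05, with a median of -0.04 beside -0.06 over all genes. At 16 h of FSK 1 was higher and 2 lower in WT, and 2 were higher and 2 lower in Med14 S983A cells, which is 37.5% and 50% of the 8 against 34.5% and 33.3% of all genes. The medians were -0.21 and -0.02, beside -0.20 and -0.10 over all genes. With ERCC scaling 2 were higher and 2 lower in each genotype, and the medians were 0.02 and 0.24. Called in both genotypes were Ddc, which encodes the decarboxylase of dopamine synthesis (-2.39 and -1.90), Th, which encodes tyrosine hydroxylase (1.15 and 2.10, from 0.355 to 2.00 TPM in WT), and the cell cycle factor gene E2f1 (-1.16 and -0.87). The 2 dopamine synthesis genes therefore moved in opposite directions.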

How the data were processed

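Bulk RNA-seq of 28 libraries in 14 groups of 2 was analysed, with group and replicate taken from the sample titles. Read alignment by the authors used STAR 2.5.3a on rn6 plus the ERCC spike-ins, and HOMER 4.11.1 gave their TPM per RefSeq transcript. The deposited TPM values were not rescaled. The deposited counts cover the 92 ERCC sequences only, which were spiked into total RNA, and the Length column of the authors' table is the exon length in bases. For their own calls the authors used DESeq2 1.24.0 with ERCC size factors.

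Each symbol was represented by its transcript of highest mean TPM. Log2(TPM + 1) of the 10275 genes averaging 1 TPM or more was fitted with limma 3.58.1 (trend) in R 4.3.3, with a mean per group over all 28 libraries and 14 residual degrees of freedom. Tests were two-sided and adjusted by Benjamini-Hochberg within a contrast, and a call needed an adjusted p under 0.05 and over 1.5-fold. There were 29 planned contrasts and 6 added after the values were seen, genotype within each treated condition. Limma was planned because the deposited gene table holds TPM.

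Multiplying TPM by length, with 1 factor per library set from the ERCC counts, gave fragments. Of 138513 low values, 100% were whole reads within 0.05 plus the rounding error of the TPM value, against 23.4% by chance. Low values with a large rounding error were left out. Replicates of every group differed beyond counting noise (chi-square of 2.46 to 9.79 for each degree of freedom). In simulated libraries standing for WT 1 h Ex-4 against CON over 10275 genes, limma recovered 95% of 100 genes changed 2-fold and 100% of 100 changed 3-fold, with 2 wrong calls.

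The named genes were the 3 members, the 5 genes with the highest Pearson r to each over the 14 group means, and from each of 4 gene lists those called in WT at 1 h of Ex-4 or in both genotypes at 16 h of FSK, at most 5 per list by size. The members, lists and tests were chosen with earlier results of these data known. Promoter windows were searched on both strands for spelled-out strings. Alternatives were a pseudocount of 0.1, no filter, a filter at 5 TPM, centring on the library median, ERCC scaling, only the libraries of the contrast, a block for the replicate number, each library left out, no fold minimum, and edgeR 4.0.16 and DESeq2 1.42.0 with the recovered fragments, also with ERCC scaling. Same-numbered replicates did not deviate together over the groups as a whole (median r 0.0035 over 91 pairs of groups, from -0.28 to 0.28, 17 of them over 0.1). Whether the numbers pair libraries within some of the groups was not tested. An alternative with the next transcript was not run, since each member has 1.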

Additional observations from a re-analysis of the deposited data

Results flagged for a closer look

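The response to an agent differed between the genotypes, by a test of the difference itself, in 10 cases, each given as the log2 response in Med14 S983A cells minus that in WT on the log2(TPM + 1) scale with 2 libraries per group. With Ex-4 these were Nr4a1 at 1 h (0.64), 8 h (0.79) and 16 h (2.29), Nr4a2 at 16 h (0.84) and Nr4a3 at 16 h (0.78). With FSK they were Nr4a1 at 1 h (1.03), Nr4a3 at 1 h (1.02), Nr4a2 at 8 h (0.99), Nr4a3 at 8 h (-0.65) and Nr4a2 at 16 h (0.59). These differences share the CON libraries of both genotypes, so their signs are not independent of each other. Of all genes, 0.672%, 2.77% and 7.24% were called in these comparisons at 1, 8 and 16 h of Ex-4. With FSK the shares were 1.64%, 13.9% and 17%. The value of Nr4a3 at 8 h of FSK changed sign with a pseudocount of 0.1 TPM. ERCC scaling in limma removed the calls of Nr4a2 and Nr4a3 at 16 h of Ex-4 and of Nr4a2 at 16 h of FSK. Leaving out some single libraries removed those of Nr4a1 at 1 h of Ex-4, Nr4a3 at 8 h of FSK and Nr4a2 at 16 h of FSK. At 16 h of Ex-4 both Med14 S983A libraries lay above both WT libraries for each of the 3 genes, although at CON they lay below them. How many other genes show this order was not counted. By limma only Nr4a1 was called between the genotypes at 16 h of Ex-4, with 1.05, where 20.8% of genes were called in either direction.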

How the results depend on the processing

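Of 105 results, 3 genes in 35 contrasts, 80 kept their direction and their side of the threshold under every alternative run. None of the 105 changed either without a filter, at 5 TPM, with only the libraries of the contrast or with the replicate number as a block (the Nr4a1 response at 16 h of Ex-4 differed between the genotypes by 2.29 with the replicate block). The cause of the changes below was not tested, except that the 18 recovered fragments of Nr4a3 in a CON library limit its folds and make them depend on the pseudocount. ERCC scaling moved the median log2 change of all genes by -0.36 to 0.35 and median centring by -0.30 to 0.39. List counts moved by over 1.5 times in 19 of 140 cases with ERCC scaling and in 14 of 140 with median centring.

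Log2 values follow in the order edgeR, DESeq2, edgeR with ERCC library sizes (added after seeing the data), DESeq2 with ERCC size factors and limma with a pseudocount of 0.1. Calls were gained by Nr4a3 at 16 h of Ex-4 in WT (0.82, 0.85, 1.01, 1.00 and 0.60), by Nr4a2 in Med14 S983A cells at 8 h (0.71, 0.73, 0.71, 0.71 and 0.67) and 16 h of Ex-4 (0.80, 0.82, 0.65, 0.65 and 0.73), by Nr4a3 between genotypes at CON (-1.71, -1.74, -1.59, -1.60 and -1.48) and by its response difference at 1 h of Ex-4 (1.60, 1.62, 1.61, 1.62 and 1.32). The response difference of Nr4a3 changed sign at 8 h of Ex-4 (0.43, 0.43, 0.36, 0.37 and 0.22), 8 h of FSK (0.42, 0.44, 0.37, 0.39 and 0.17) and 16 h of FSK (0.50, 0.52, 0.45, 0.46 and 0.32).

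With edgeR, DESeq2 and the pseudocount of 0.1 alone, calls were gained by the Nr4a2 response difference at 1 h of FSK (0.63, 0.66 and 0.62) and by Nr4a2 at 16 h against 8 h of Ex-4 in WT (-0.69, -0.69 and -0.74). With edgeR and DESeq2 on ERCC scaling alone, they were gained by Nr4a1 at 16 h of Ex-4 in WT (0.63 and 0.63) and Nr4a3 for Ex-4 against FSK at 16 h in Med14 S983A cells (-0.77 and -0.77), and the Nr4a3 genotype difference at 1 h of Ex-4 changed sign (0.023 and 0.023). With ERCC scaling in edgeR, DESeq2 and limma, Nr4a1 at 16 h against 8 h of FSK in Med14 S983A cells lost its call (-0.55, -0.55 and -0.56), and signs changed for Nr4a2 (-0.067, -0.067 and -0.066) and Nr4a3 (-0.066, -0.065 and -0.050) in Med14 S983A cells at 16 h against 8 h of Ex-4 and for the Nr4a2 genotype difference at 1 h of FSK (-0.020, -0.020 and -0.085).

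With edgeR, DESeq2, the 3 ERCC fits in this order and median centring, the Nr4a1 genotype difference at 1 h of Ex-4 lost its call (-0.55, -0.54, -0.42, -0.42, -0.46 and -0.54) and that of Nr4a2 at 8 h of FSK gained one (0.62, 0.61, 0.69, 0.69, 0.66 and 0.59). With ERCC scaling in limma the response differences at 16 h of Ex-4 for Nr4a2 (0.56) and Nr4a3 (0.58) and at 16 h of FSK for Nr4a2 (0.53) lost their calls. With median centring the last was also lost (0.50), Nr4a2 in Med14 S983A cells after 16 h of Ex-4 was called (0.61), and the Nr4a2 response difference at 1 h of Ex-4 changed sign (-0.0042).

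With each library left out in turn, a call or sign changed for these ranges: Nr4a2 in Med14 S983A cells at 16 h of Ex-4, 0.43 to 0.68; Nr4a3 between genotypes at CON, -0.63 to -0.45; response differences of Nr4a1 at 1 h of Ex-4, 0.52 to 0.76, of Nr4a2 at 1 h of Ex-4, -0.087 to 0.13, of Nr4a3 at 8 h of FSK, -0.74 to -0.56, and of Nr4a2 at 16 h of FSK, 0.51 to 0.67. For 16 h against 8 h of Ex-4 they were -0.64 to -0.52 for Nr4a2 in WT, and -0.081 to 0.18 for Nr4a2 and -0.12 to 0.20 for Nr4a3 in Med14 S983A cells. For genotype differences they were -0.73 to -0.48 for Nr4a1 at 1 h of Ex-4, -0.05 to 0.13 for Nr4a2 and 0.30 to 0.65 for Nr4a3 at 1 h of FSK, and 0.49 to 0.62 for Nr4a2 at 8 h of FSK.

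Without the fold minimum, members called numbered 3 instead of 0 for WT at 16 h of Ex-4, 3 instead of 1 for genotype at CON, for the response difference at 16 h of FSK, for Ex-4 against FSK at 16 h in Med14 S983A cells and for the genotype difference at 8 h of Ex-4, 2 instead of 1 for that at 1 h and 16 h of Ex-4, 2 instead of 0 for that at 1 h of FSK, and 1 instead of 0 in Med14 S983A cells for 16 h against 8 h of Ex-4. The share of all genes called without a fold minimum was not computed. These counts therefore do not set the members apart from other genes.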
